A study of Mus musculus with 3 samples.

Results

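The comparison of the sample named BA with mouse fibroblasts was described across genes. BA carries brown adipose tissue as its labelled source and tissue, while its description and growth protocol speak of cultivated cells, so the labels do not settle whether tissue or cultured cells were used. The fibroblasts are labelled as cultivated mouse fibroblasts, grown at 37 degrees in 5% CO2. No treatment, strain, age, sex, passage or adipose depot is given for either sample, and how many animals each RNA came from is not given. The series holds 3 single-colour arrays, 1 array per sample, and the remaining one carries the name DiBA in a series on directly converted brown adipocytes.

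The comparison used all probe sets that name 1 gene symbol, averaged per gene. A level filter was then set on the gene's higher intensity of both arrays. It lay at 69.2, which is the median over all probe sets and arrays. This level was reached by 12940 of the 21789 probe sets with 1 symbol, out of 28943 in all, and by 11663 of 19938 genes. The probe sets on either side of this level had a higher intensity of 69.17 just inside and 69.15 just outside it. With 1 array per group there was no spread between replicates, no p-value is given, and every difference lacks a replicate check. Differences are log2(intensity + 1) in BA minus fibroblasts, folds are on that scale, and a gene counts as higher or lower only at 2-fold or more with the higher array at 69.2 or above.

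Brown adipose tissue burns fatty acids to make heat. Its adipocytes store triglyceride in many small droplets, are rich in mitochondria, and carry an uncoupling protein in the inner mitochondrial membrane that lets protons return without making ATP. Noradrenaline from sympathetic nerves raises cyclic AMP, which starts the breakdown of droplets and the transcription of the uncoupling protein. The tissue also holds a dense bed of capillaries, macrophages, nerve fibres and stromal cells, and lies between muscles, whereas a fibroblast culture consists of proliferating cells that make matrix. In bulk samples such as these, fewer cells of a type and less RNA per cell cannot be told apart.

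The arrays lay close together in scale, with median intensities from 67.7 to 71.5. On BA and fibroblasts, 10708 probe sets (37.0%) held exactly the same intensity, as did 1491 of the 11663 genes past the level filter (12.8%). Such genes stand at a difference of 0. The DiBA array, labelled as cultivated cells, carried most markers of tissue cell types at intensities near those of BA: Cdh5, an endothelial cadherin, stood at 1027 in DiBA and 1188 in BA, Ckm, the muscle creatine kinase, at 2489 and 2805, and Mrc1, the macrophage mannose receptor, at 430.2 and 424. What lies behind these values was not tested.

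BA had 1897 genes at least 2-fold higher than fibroblasts, 9.51% of all genes measured and 16.3% of those past the level filter. It had 1913 genes at least 2-fold lower, 9.59% and 16.4%. The higher genes reached further: 370 were at least 8-fold and 68 at least 32-fold higher, against 249 and 15 lower. A large share of these folds rested on a dim array, since 632 of the higher genes lay under the median intensity in fibroblasts and 628 of the lower genes under it in BA. When intensities under 69.2 were raised to that level (below, "floored"), 1743 genes (8.74%) were higher and 1699 (8.52%) lower. The median difference over all genes was 0.

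**Figure D1:**
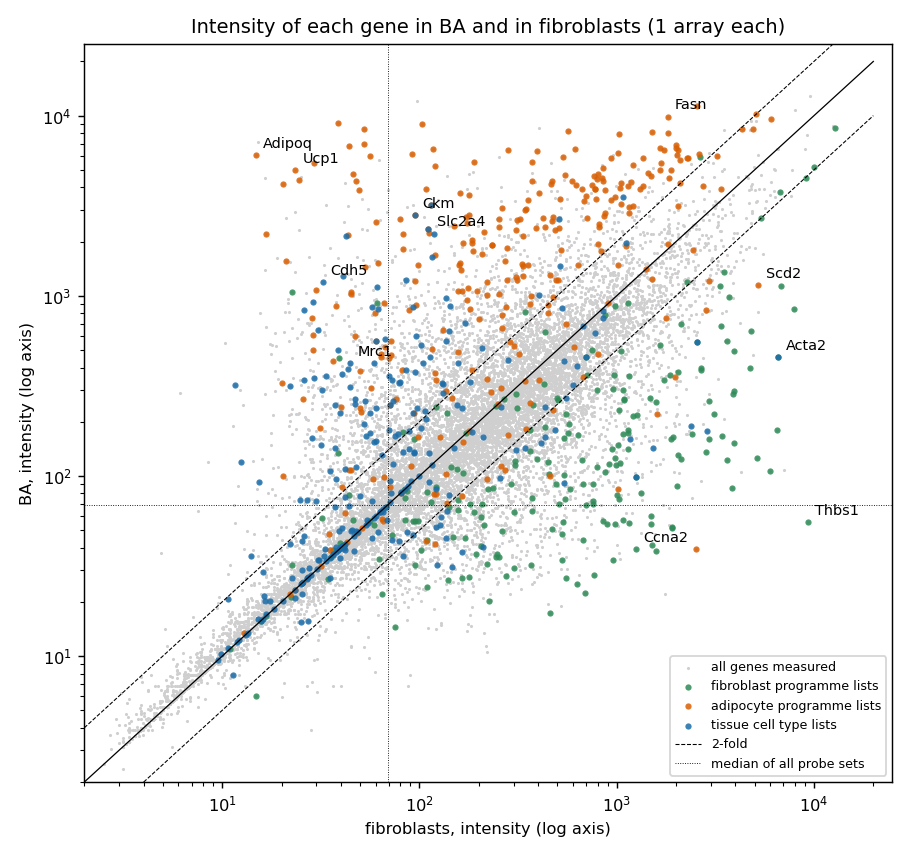
Intensity of every gene in fibroblasts (x, log axis) against BA (y, log axis), 1 array each, with adipocyte list genes in orange, tissue cell type genes in blue, fibroblast list genes in green and all other genes in grey. Dashed lines mark 2-fold differences and dotted lines the median of all probe sets, 69.2. Most orange points lie above the upper dashed line (216 of 292 genes) and most green points below the lower one (151 of 214 genes).

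The highest differences were led by genes known from fat and liver. Cyp2e1, a cytochrome P450, had 15.3 units of intensity in fibroblasts against 7149 in BA, 439-fold higher. Adipoq, which encodes the hormone adiponectin, had 14.9 and 6048, 381-fold higher. Tmem45b, a membrane protein, had 16.5 and 4502, 258-fold higher. Among the 25 highest genes, 14 stood in one of the lists described below, and the other 11 were Cyp2e1, Tmem45b, Ces1d, Pygl, Car3, Acsm3, Apoc1, Fam13a, Steap4, Coq8a and Orm1. Several of these are enzymes of fat tissue: Ces1d is a carboxylesterase with triglyceride hydrolase activity, 176-fold higher at 4572 in BA. Car3, a carbonic anhydrase abundant in fat and muscle, stood at 97.7 and 12023. Coq8a, needed for coenzyme Q synthesis in mitochondria, stood at 62.1 and 5641, and Pygl, a glycogen phosphorylase, at 21.1 and 2708. In 23 of these 25 genes the fibroblast array lay under 69.2, so the order among them rests in part on background.

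The lowest differences included many matrix, growth factor and cell cycle genes. Thbs1, a matricellular protein that activates TGF-beta, had 9341 in fibroblasts and 55.5 in BA, 165-fold lower. Crabp1, a retinoic acid carrier, had 7046 and 108, 64.6-fold lower. Slit2, a guidance protein from which a secreted fragment is cut in beige fat, had 2511 and 39.5, 62.0-fold lower. Of the 25 lowest genes, 16 stood in a list and 9 in none: Crabp1, Cdh11, Cd109, Fbn2, Hmga2, Tnmd, Mest, Tenm3 and Slc7a5. These include a mesenchymal cadherin (Cdh11, 4258 and 106), a chromatin protein of embryonic and proliferating cells (Hmga2, 2404 and 75.5) and an imprinted gene of mesoderm (Mest, 2668 and 93.8). BA lay under 69.2 in 16 of these 25.

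To separate adipocyte programmes from other cells, 12 lists of adipocyte genes, 15 lists of tissue cell markers and 6 lists of fibroblast genes were compared. The lists were chosen with earlier results of these data known, so their shares are a description and not a test. Some genes, among them Ckm, Gpihbp1 and Pparg, count as both adipocyte and tissue cell genes. Of all genes measured, 9.51% lay higher and 9.59% lower. Among the 292 measured genes of the adipocyte lists, 216 (74.0%) lay at least 2-fold higher, 16 (5.48%) lay lower, and the median difference was 2.13. Many of the higher genes are mitochondrial: 24 of 27 for fatty acid oxidation and 21 of 22 for the citric acid cycle. To these add 48 of 55 for the respiratory chain and ATP synthase, and 19 of 21 for branched-chain amino acid breakdown. Muscle is also rich in mitochondria, and its part in these counts was not tested. Among 247 tissue cell markers, 87 (35.2%) lay higher and 25 (10.1%) lower, and the median was 0.16. Among 214 fibroblast genes, 7 (3.27%) lay higher and 151 (70.6%) lower, and the median was -2.14. With floored intensities the medians were 2.03, 0 and -1.73, and the counts higher for the first pair were 212 and 78. Since the tissue lists were unlike each other, they are taken 1 by 1 after the adipocyte programmes.

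**Figure D2:**
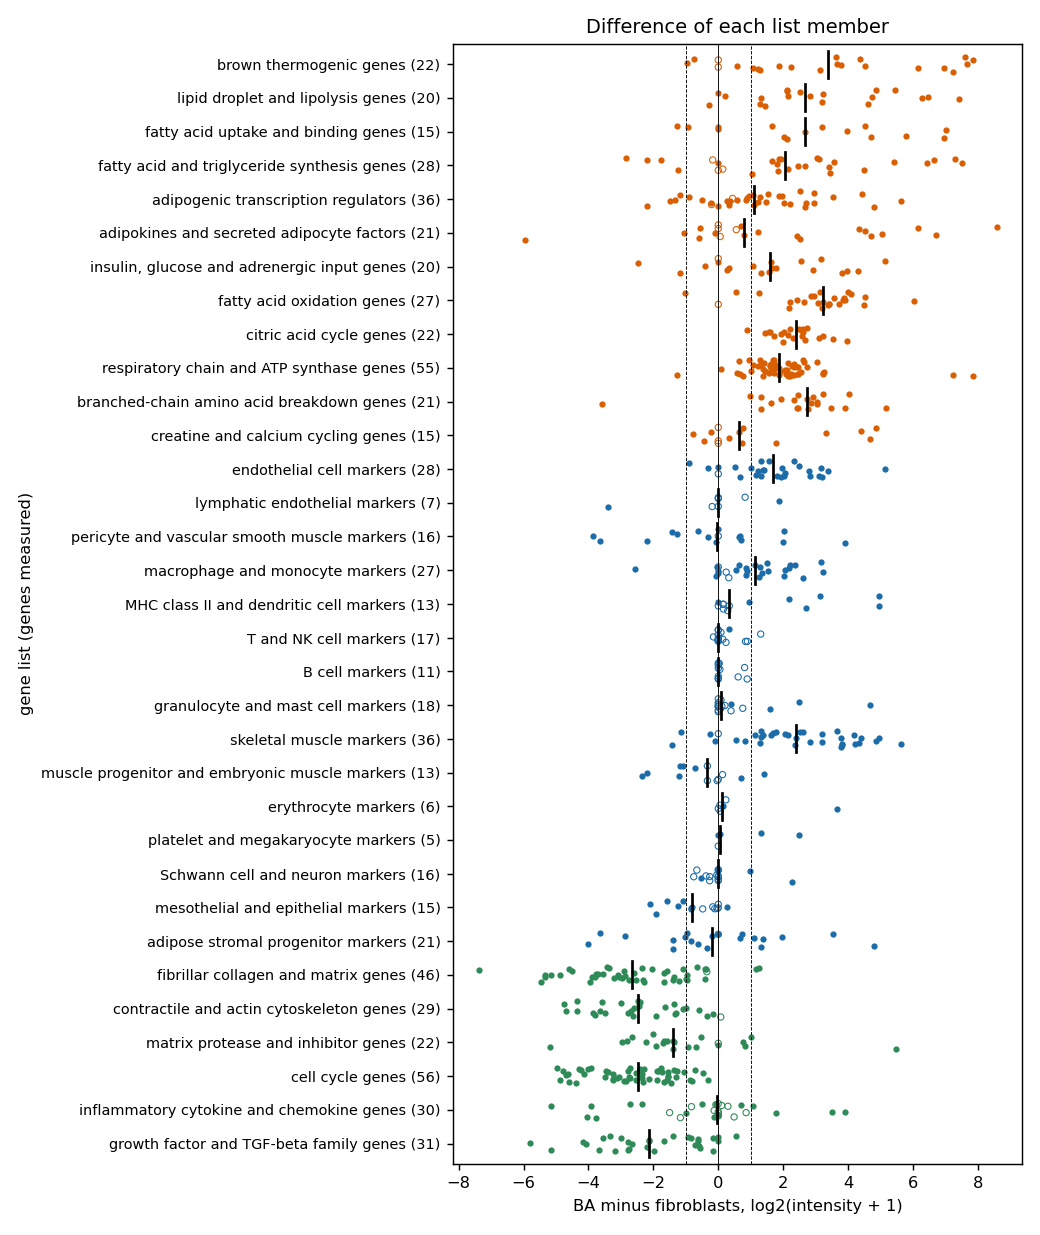
Difference of each measured gene (points, BA minus fibroblasts, log2(intensity + 1)) by list, with the number of genes measured in brackets. Orange, blue and green mark adipocyte, tissue cell and fibroblast lists, filled points reached the level filter, open points did not, black bars are medians, and dashed lines mark 2-fold. The medians of all adipocyte lists lie above 0, from 0.65 to 3.38, whereas the tissue cell lists spread on both sides of it.

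The brown thermogenic list was the adipocyte list with the highest median, 3.38: 17 of 22 genes measured lay at least 2-fold higher and 0 lay lower. Ucp1, the uncoupling protein itself, stood at 23.5 in fibroblasts, 4598 in DiBA and 4995 in BA, 204-fold higher in BA. Cidea, a droplet protein of brown fat, had 20.4, 3828 and 4161, 194-fold higher. The fibroblast array was dark for both, while the other arrays were bright. Ppargc1a, the coactivator that drives mitochondrial genes under cold, stood at 47.1 in fibroblasts and 595 in BA, 12.4-fold higher. Otop1, a proton channel of brown fat, stood at 45.1 and 1048, 22.8-fold higher. Less bright members also passed the level: Dio2, the deiodinase that makes active thyroid hormone within the cell, stood at 44.0 and 108, and Elovl3, a fatty acid elongase raised by cold, at 20.4 and 99.4. Neither reached 2-fold with floored intensities, where 14 of the 22 genes did.

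Other thermogenic members were brighter. Slc27a2, an acyl-CoA synthetase that moves very long fatty acids into the cell, stood at 16.7 in fibroblasts and 2191 in BA, 124-fold higher. Nrg4, a secreted neuregulin of brown fat, stood at 21.1 and 1569, 70.9-fold higher. Pank1, the first enzyme of coenzyme A synthesis, stood at 177 and 3646, 20.4-fold higher, and Acot11, a cold-induced thioesterase, at 66.1 and 913. The other 5 genes did not reach 2-fold. Zic1, a transcription factor that marks classical brown fat, stood at 282 and 168, and Eva1a, another marker, at 138 and 70.7, both dimmer in BA. Lhx8 stood at 66.3 and 98.5, while the secreted factors Fgf21 (43.2) and Bmp8b (48.0) were tied and under 69.2.

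Droplets are coated by perilipins and emptied by 3 lipases in turn. Of 20 lipid droplet and lipolysis genes, 17 lay at least 2-fold higher, 0 lay lower, and the median was 2.67; the counts were the same with floored intensities. Each of the lipases was among them. Pnpla2, which takes the first fatty acid from triglyceride, stood at 189 in fibroblasts and 5507 in BA, 29.0-fold higher. Lipe, hormone-sensitive lipase, stood at 119.9 and 5245, 43.4-fold higher. Mgll, which completes the reaction, stood at 188 and 1778, 9.42-fold higher. The perilipins that coat droplets spanned a wide range. Plin1, the perilipin that protein kinase A phosphorylates, stood at 49.2 and 3879, 77.3-fold higher, and Plin5, which tethers droplets to mitochondria, at 95.6 and 886, 9.18-fold higher. Cidec, which fuses droplets, was 88.9-fold higher at 4328. Aqp7, the channel by which glycerol leaves the cell, was 171-fold higher at 4379 against 24.7. Pnpla3 and Plin4 were 26.9-fold and 24.2-fold higher, and the broadly expressed Plin2 and Plin3 4.37-fold and 2.47-fold higher.

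Fatty acids enter from the blood after lipoprotein lipase frees them. Of 15 genes of fatty acid uptake and binding, 11 lay at least 2-fold higher, 1 lay lower, and the median was 2.68. Lpl, the lipase, stood at 281 in fibroblasts and 6469 in BA, 22.9-fold higher. Gpihbp1, the endothelial protein that holds it on the capillary wall, stood at 60.2 and 562, 9.19-fold higher. Angptl4, which inhibits it, stood at 82.4 and 2192, 26.3-fold higher. So the lipase, its anchor and its inhibitor were all higher. Cd36, the fatty acid receptor, was 55.1-fold higher at 6500.0 against 117. Slc27a1, a fatty acid transport protein, was 6.39-fold higher, whereas its relative Slc27a3 was 2.43-fold lower at 43.7 against 108, a difference that did not reach 2-fold with floored intensities. Fabp4 and Fabp3, cytosolic fatty acid carriers of fat and of muscle and brown fat, were 131-fold and 15.7-fold higher.

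Synthesis genes were split. Of 28 genes of fatty acid and triglyceride synthesis, 20 lay at least 2-fold higher, 4 lay lower, and the median was 2.05, and these counts were the same with floored intensities. The steps from citrate to palmitate were among the higher genes. Acly, which makes cytosolic acetyl-CoA, stood at 1037 in fibroblasts and 3968 in BA, 3.82-fold higher. Fasn, fatty acid synthase, stood at 1810.5 and 9875, 5.45-fold higher. Acaca, the acetyl-CoA carboxylase of the cytosol, stood at 545 and 4676, 8.57-fold higher. Elovl6, which lengthens palmitate, lay just over the threshold at 2.04-fold. Genes of glycerol phosphate and triglyceride assembly ranged widely: Gpd1, which makes glycerol 3-phosphate, was 158-fold higher at 8442, Pck1, the enzyme of glyceroneogenesis, 101-fold higher at 4738, and Dgat2, the last acyltransferase, 86.5-fold higher at 9003, whereas Dgat1, which catalyses the same step, was 8.24-fold and the acyltransferase Gpat3 3.51-fold higher. Thrsp, a lipogenic nuclear protein, was 182-fold higher, and Mlxipl, the carbohydrate response factor, 22.3-fold higher.

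All 4 lower genes of this list were desaturases. Fads2, which starts the making of polyunsaturated fatty acids, stood at 1595 in fibroblasts and 221 in BA, 7.19-fold lower. Fads1, which follows it, stood at 2842 and 836, 3.40-fold lower. Fads3, their neighbour in the genome, stood at 1784 and 758, 2.35-fold lower. The fourth was Scd2, a stearoyl-CoA desaturase, at 5224 and 1149, 4.54-fold lower. Scd1, the form typical of liver and fat, went the other way, at 2539.7 in fibroblasts and 11376 in BA, 4.48-fold higher.

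Of 36 transcription regulators of adipogenesis, 19 lay at least 2-fold higher, 4 lay lower, and the median was 1.09. Pparg, the nuclear receptor that drives fat cell differentiation, stood at 115 in fibroblasts and 3196 in BA, 27.6-fold higher. Cebpa, its partner in terminal differentiation, stood at 82.8 and 1818, 21.7-fold higher. Ppara, the receptor that drives fatty acid oxidation, stood at 43.2 and 2179, 49.3-fold higher. Regulators of the brown lineage differed less. Prdm16, a determinant of brown identity, stood at 94.3 in fibroblasts, 223 in BA and 1084 in DiBA, 2.35-fold higher in BA. Cebpb, which acts early in adipogenesis, stood at 136, 295 and 711, 2.16-fold higher in BA. For both genes BA lay between fibroblasts and DiBA. Ebf2, which marks brown precursors, was 3.66-fold higher in BA, and Irf4, a factor of the response to cold, 5.70-fold higher. The lower regulators were Klf5 (4.60-fold), Gata3 (2.83-fold), Nr4a1 (2.52-fold) and Zfp516 (2.27-fold). Gata3 holds back preadipocytes, while Klf5 is an activator of adipogenesis, so the lower members do not share 1 role.

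Adipokines are hormones that fat tissue releases. Of 21 adipokines and secreted factors, 10 lay at least 2-fold higher, 2 lay lower, and the median was 0.80. Besides Adipoq, Retn, which encodes resistin, stood at 56.1 in fibroblasts and 5985 in BA, 105-fold higher. Rbp4, the retinol carrier, stood at 79.8 and 2665, 33.0-fold higher. Lep, which encodes leptin and is highest in white fat, stood at 29.0 and 609, 20.4-fold higher. Of the factors known from brown fat, Nrg4, given above, was higher, whereas Fgf21 and Bmp8b were tied and under 69.2. Nampt, an NAD-making enzyme found outside cells, was 5.70-fold higher, and Angptl8, an inhibitor of lipoprotein lipase, 5.36-fold higher. Nnat, neuronatin, stood at 303 and 527, 1.74-fold, under the threshold. The lower genes were Slit2, given above, and Metrnl, a secreted factor of muscle and fat, 2.09-fold lower at 77.6.

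Insulin and noradrenaline act on fat cells in opposite ways. Of 20 genes of insulin, glucose and adrenergic input measured, 13 lay at least 2-fold higher, 2 lay lower, and the median was 1.60. Slc2a4, the insulin-responsive glucose transporter, stood at 112 in fibroblasts and 2227 in BA, 19.7-fold higher. Slc2a1, the basal glucose transporter, stood at 1979 and 356, 5.54-fold lower. Trarg1, a partner of the insulin-responsive transporter in its vesicles, was 34.8-fold higher at 1076. Insr, the insulin receptor, was 2.51-fold higher, and Irs1, its adaptor, stood at 136 and 102, under the threshold, while Irs3 was 7.59-fold higher. On the cyclic AMP side, Prkar2b, the regulatory subunit of protein kinase A in fat, was 8.93-fold higher at 4165, and Pde3b, through which insulin lowers cyclic AMP, 14.0-fold higher at 1687. Npr1, the natriuretic peptide receptor, was 5.89-fold higher at 241. Gys2, listed with the storage enzymes and known as the liver glycogen synthase, was 15.8-fold higher at 330.4.

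Mitochondrial genes were higher throughout the pathway from fatty acid to oxygen. Of 27 fatty acid oxidation genes, 24 lay at least 2-fold higher, 1 lay lower, and the median was 3.24. Acadvl, the dehydrogenase for the longest acyl chains, stood at 160.3 in fibroblasts and 3721 in BA, 23.1-fold higher. Acadl, for long chains, stood at 372 and 5544, 14.9-fold higher. Acadm, for medium chains, stood at 616 and 6516, 10.6-fold higher. Each of these dehydrogenases was thus at least 10-fold higher. Both subunits of the trifunctional protein were higher, Hadha 6.20-fold and Hadhb 15.9-fold. Ehhadh, the peroxisomal counterpart, was 22.6-fold higher at 880.0. Pdk4, the kinase that turns pyruvate away from oxidation, was 66.0-fold higher at 6144 against 92.1. Ucp3, an uncoupling protein of muscle and brown fat, was 16.9-fold higher at 501.

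Carnitine carries long acyl chains into mitochondria, and the lower gene of the list acts at its entry step. Cpt1a, the liver form of the enzyme that loads acyl chains onto carnitine, stood at 477 in fibroblasts, 395 in DiBA and 233 in BA, 2.04-fold lower in BA and just past the threshold. Cpt2, which unloads them inside the mitochondrion, stood at 261 and 3082, 11.8-fold higher. Slc25a20, the carrier between both enzymes, was 10.6-fold higher at 2275, and Crat, carnitine acetyltransferase, 7.25-fold higher at 4333. The muscle and brown fat form Cpt1b is not analysed here, so the sum of both forms cannot be given.

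The citric acid cycle list was among the most uniform: 21 of 22 genes measured lay at least 2-fold higher and 0 lay lower, with a median of 2.38. The exception was Mdh2, malate dehydrogenase, at 3210.4 in fibroblasts and 5984 in BA, 1.86-fold. Cs, citrate synthase, stood at 2012 and 6045, 3.00-fold higher. Pcx, pyruvate carboxylase, which feeds the cycle and supplies glyceroneogenesis, was 15.7-fold higher at 2729.6. Suclg1 and Sucla2, subunits of the ligase that splits succinyl-CoA, were 11.7-fold and 9.27-fold higher. Pdhb, a subunit of pyruvate dehydrogenase, was 8.61-fold higher although Pdk4, which inhibits that complex, was higher as well.

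Of 55 nuclear genes of the respiratory chain and ATP synthase, 48 lay at least 2-fold higher, 1 lay lower, and the median was 1.87. Cox8b and Cox7a1, described with the isoforms below, had the largest folds. In complex I, Ndufv1 was 5.49-fold and Ndufs1 6.06-fold higher, and Ndufb8 had the largest fold of the complex named, 9.55, at 353 in fibroblasts and 3383 in BA. In the complexes that follow, Uqcrc1 was 4.42-fold, Cyc1 5.37-fold and Cox5a 4.86-fold higher. Of the 15 genes for ATP synthase subunits in this list, 9 lay at least 2-fold higher and 1 lay lower. Atp5l had the largest fold, 8.21, over 6 probe sets, and Atp5a1, a subunit of the catalytic head, was 2.58-fold higher. Atp5b, the catalytic subunit, stood at 4936 and 8432, 1.71-fold, under the threshold. Atp5g1, 1 of the genes for the membrane ring, stood at 2939 and 1215, 2.42-fold lower, and was the only lower gene of the list of 55.

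Brown fat also burns branched-chain amino acids. Of 21 genes of their breakdown, 19 lay at least 2-fold higher, 1 lay lower, and the median was 2.73. Bckdha, of the dehydrogenase that commits them to oxidation, stood at 149 in fibroblasts and 2442 in BA, 16.3-fold higher. Bckdhb, its partner subunit, stood at 308 and 2314, 7.49-fold higher. Aldh6a1, an enzyme of the valine branch, stood at 109 and 3939, 35.9-fold higher. Hibch, which precedes it, was 15.0-fold higher, and Pcca and Pccb, both subunits of propionyl-CoA carboxylase, 8.20-fold and 11.0-fold higher. The lower gene was Bcat1, the cytosolic aminotransferase, at 1016 and 84.4, 11.9-fold lower.

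The creatine and calcium cycling list, which holds genes proposed to make heat without the uncoupling protein, had the lowest median of the adipocyte lists, 0.65. Of 15 genes, 5 lay at least 2-fold higher and 0 lay lower. None of the genes taken to define the list passed 2-fold: Ckb stood at 1117 in fibroblasts and 1881 in BA, Gatm at 219.8 and 346, Alpl at 98.3 and 165, Slc6a8 at 611 and 519, Atp2a2 at 2443 and 1796, and Ryr2 at 51.4 on both arrays. The higher genes were Ckm, Pm20d1, Atp2a1, Ckmt2 and Ryr1, and 4 of these 5 are known from muscle. Pm20d1, an enzyme that makes acyl amino acids, stood at 28.5 and 758, 25.7-fold higher. The skeletal muscle markers that were higher in the same array are given below, and their part in these values was not tested.

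Related genes were listed in pairs, with a form taken here as typical of fat, heart or muscle named first. The second is another form, whether or not it is found in most cells. Acly (3.82-fold higher) and Acss2 (6.43-fold higher), paired as sources of acetyl-CoA, are different enzymes. The counts therefore do not measure a switch from common to tissue forms. Of 20 such pairs listed, 17 had both forms measured. The first form was at least 2-fold higher in 15 and lower in 0, whereas the other form was higher in 7 and lower in 3. The first form's difference was the larger in 14 of the 17. Each pair is read within a gene across arrays, since intensities of different probe sets cannot be compared with each other.

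Cytochrome oxidase has tissue forms of several subunits. Cox8b stood at 38.7 in fibroblasts and 9124 in BA, 229.8-fold higher, and its counterpart Cox8a at 2615 and 6158, 2.35-fold higher. Cox7a1 stood at 43.9 and 6780.5, 151-fold higher, and Cox7a2 at 810.3 and 2494, 3.08-fold higher. Both tissue forms lay under the median in fibroblasts. The order was turned for 2 other subunits. Cox6a2, known from heart and muscle, was 2.50-fold higher and Cox6a1 5.83-fold, and Cox4i2, the form of low oxygen, stood at 87.4 and 111 while Cox4i1 was 5.06-fold higher.

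In 3 pairs the forms went past 2-fold in opposite directions: Slc2a4 over Slc2a1, Scd1 over Scd2, and Bcat2 over Bcat1. Bcat2, the mitochondrial aminotransferase, stood at 219 in fibroblasts and 1201 in BA, 5.46-fold higher, against the 11.9-fold lower Bcat1. In a further 6 pairs both forms were higher. Plin1 was 77.3-fold and Plin2 4.37-fold higher, and Acacb, the carboxylase at the mitochondrial surface, 42.2-fold against 8.57-fold for Acaca. Elsewhere the second form stayed under the threshold: Fabp5 stood at 906 and 909 beside the 131-fold higher Fabp4, Ldha at 5226 and 6029 beside Ldhb at 254 and 2165, Hk1 at 981 and 1016 beside Hk2 at 262 and 784, and Gpx1 at 1525 and 2662 beside Gpx3 at 404 and 8548. The adenine nucleotide translocases stayed under the threshold, with Slc25a4 at 2199.7 and 2429 and Slc25a5 at 3141 and 3357.

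**Figure D3:**
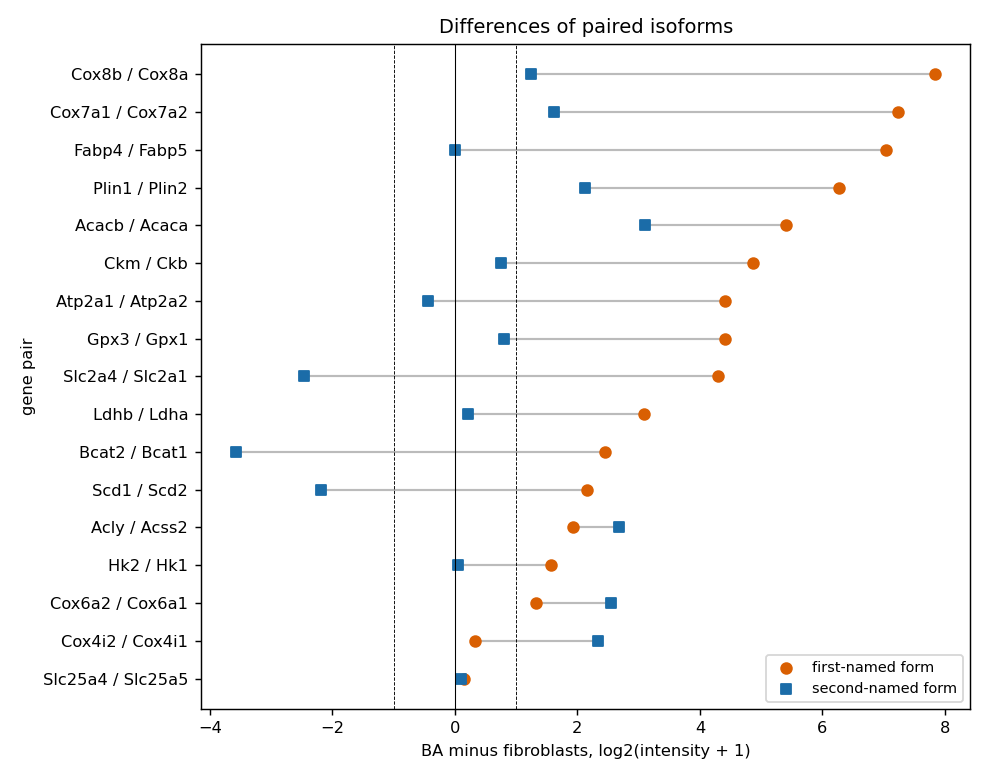
Difference of both forms of each pair (BA minus fibroblasts, log2(intensity + 1)). Orange circles mark the form taken as typical of fat, heart or muscle, named first, and blue squares the other form. Dashed lines mark 2-fold and a grey line joins the forms of a pair. The circle lies to the right of the square in 14 of 17 pairs, and the square lies to the left of the lower dashed line for Slc2a1, Scd2 and Bcat1.

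Markers of cells other than adipocytes were taken list by list. Endothelial cells line the capillaries of fat. Of 28 endothelial markers measured, 22 lay at least 2-fold higher in BA, 0 lay lower, and the median was 1.69, and 18 were higher with floored intensities. Their summed intensity was 3227 in fibroblasts, 8348 in DiBA and 9769.7 in BA. Cdh5, the cadherin of endothelial junctions, stood at 32.6 in fibroblasts and 1188 in BA, 35.4-fold higher. Pecam1, a junction protein, stood at 43.3 and 393, 8.90-fold higher. Kdr, the main receptor for vascular endothelial growth factor, stood at 157 and 422, 2.67-fold higher. All 6 defining markers passed 2-fold, with Tek 5.04-fold, Tie1 3.94-fold and Vwf 2.60-fold. Lymphatic markers did not share this. Lyve1, which macrophages also carry, was 3.66-fold higher, but Prox1 (25.5 and 22.3) and Flt4 (60.4 on both arrays) lay under 69.2, and Pdpn, which fibroblasts carry as well, was 10.6-fold lower.

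Mural cells, the pericytes and smooth muscle of vessels, gave a split list: 3 of 16 markers (18.8%) lay at least 2-fold higher and 5 lay lower, with a median of -0.03. Over all genes, 9.51% of those measured and 16.3% of those past the level filter were higher. Since 15 of the 16 markers passed that filter, 16.3% is the closer share, and the markers lay near it. The 3 higher genes are known from pericytes. Rgs5 stood at 57.3 in fibroblasts and 865 in BA, 14.9-fold higher. Kcnj8 and Abcc9, which form a potassium channel, stood at 136 and 562 and at 95.1 and 379. Apart from Pdgfrb, the lower ones were genes of smooth muscle contraction that fibroblast cultures also express: Acta2 stood at 6596 in fibroblasts and 457 in BA, and Cnn1 at 1255 and 99.3. Other pericyte genes stayed under the threshold, with Cspg4 at 627 and 406, Mcam at 777 and 622, Notch3 at 149 and 143, and Higd1b tied at 20.4. Pdgfrb, shared by both cell types, was 4.58-fold lower at 555.

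Macrophages reside in fat tissue. Of 27 macrophage and monocyte markers, 14 lay at least 2-fold higher, 1 lay lower, and the median was 1.13, and 11 were higher with floored intensities. Their summed intensity was 4118 in fibroblasts, 8797 in DiBA and 8187 in BA. Mrc1 stood at 44.7 in fibroblasts and 424 in BA, 9.30-fold higher. Csf1r, the receptor for the macrophage growth factor, stood at 104 and 422, 4.04-fold higher. C1qa, C1qb and C1qc, the complement subunits made by tissue macrophages, were 4.12-fold, 6.07-fold and 5.20-fold higher. Cd163 was 4.55-fold and Adgre1 2.53-fold higher. The other 12 markers did not differ 2-fold. Cd68, a lysosomal protein that fibroblasts also hold, stood at 165 and 238, Mertk at 184 and 176, and Itgam at 42.1 and 76.8. Cx3cr1 (88.0) and Trem2 (115) were tied past the level. In BA, Aif1 (27.0), Fcgr1 (51.2) and Timd4 (48.7) lay under 69.2. The lower gene, Gpnmb, another lysosomal protein, stood at 540.3 in fibroblasts, 493 in DiBA and 90.9 in BA.

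Antigen presentation genes were among the higher tissue markers. Of 13 MHC class II and dendritic cell markers, 5 lay at least 2-fold higher and 0 lay lower. Cd74, the invariant chain, stood at 26.0 in fibroblasts and 833 in BA, 30.9-fold higher. H2-Aa stood at 29.0 and 920.0, 30.7-fold higher, and H2-Ab1 and H2-Eb1 were 8.82-fold and 4.49-fold higher. These molecules sit on macrophages, dendritic cells and B cells alike. The other higher gene was Cd209a, a lectin of dendritic cells, at 37.3 and 247, 6.46-fold higher. Itgax and Flt3, also dendritic cell markers, lay at 30.7 and 34.4 in BA, under 69.2.

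Lymphocyte markers stayed at low intensities. Of 17 T and NK cell markers, 0 were at least 2-fold higher or lower, 9 held the same intensity on both arrays, and only Cd3e reached the level, at 57.3 in fibroblasts and 72.5 in BA. Of 11 B cell markers, 0 reached the level. Summed over the lists, T and NK cell markers had 539 in fibroblasts and 635 in BA, and B cell markers 289 and 344. Of 18 granulocyte and mast cell markers, 3 (16.7%) lay at least 2-fold higher, against 9.51% of all genes measured, and all 3 are mast cell genes. Cpa3, a carboxypeptidase, stood at 11.7 and 320.2, 25.3-fold higher, Mcpt4, a connective tissue mast cell protease, was 5.58-fold higher at 164, and Kit, the receptor for stem cell factor, 3.04-fold higher at 173. Other mast cell genes did not differ 2-fold: Tpsb2 stood at 70.9 and 93.6, Cma1 lay at 43.7 in BA, and Fcer1a (26.8) and Ms4a2 (11.9) were tied. The neutrophil markers S100a8 (27.0 on both arrays) and S100a9 (33.0 and 35.8) also lay under 69.2.

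Skeletal muscle gave the highest median of the tissue lists, 2.38. Of 36 markers measured, 29 lay at least 2-fold higher and 2 lay lower, and their summed intensity was 6080.1 in fibroblasts, 27689.9 in DiBA and 31700.4 in BA. Muscle fibres are fast or slow by the isoforms of their sarcomere. Markers of fast fibres led the list: Myh4, a fast myosin heavy chain, stood at 41.2 in fibroblasts and 1295 in BA, 30.7-fold higher. Pvalb, the calcium buffer of fast fibres, stood at 42.7 and 2140.4, 49.0-fold higher. Ckm stood at 94.7 and 2805, 29.3-fold higher. The fast troponins Tnni2, Tnnt3 and Tnnc2 were 18.4-fold, 14.2-fold and 14.1-fold higher, and Atp2a1, the fast calcium pump, 21.2-fold. Both lower genes belong to the slow troponin complex: Tnni1 stood at 415 and 152, 2.72-fold lower, and Tnnc1 at 309.7 and 139, 2.22-fold lower.

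Markers of muscle progenitors and embryonic muscle did not follow the mature ones. Of 13 measured, 1 was at least 2-fold higher and 5 lower, and with floored intensities 0 and 2. Myh3, the embryonic myosin, stood at 146 in fibroblasts and 31.3 in BA, 4.54-fold lower. Chrna1, a subunit of the acetylcholine receptor, stood at 210.3 and 40.1, 5.13-fold lower. Myod1 and Myog, the factors that commit and differentiate myoblasts, stood at 128 and 59.5 and at 82.3 and 36.0. These 4 genes had higher intensities in fibroblasts than in BA. Pax7 and Myf5, of satellite cells and early precursors, lay under 69.2 on both arrays, and the higher gene, Myf6, of mature fibres, stood at 73.7 in BA.

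Adipocyte lists and muscle lists share genes, among them Ckm and Atp2a1, and muscle is itself rich in mitochondria. How much of the mitochondrial differences comes with the muscle markers was not tested.

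**Figure D4:**
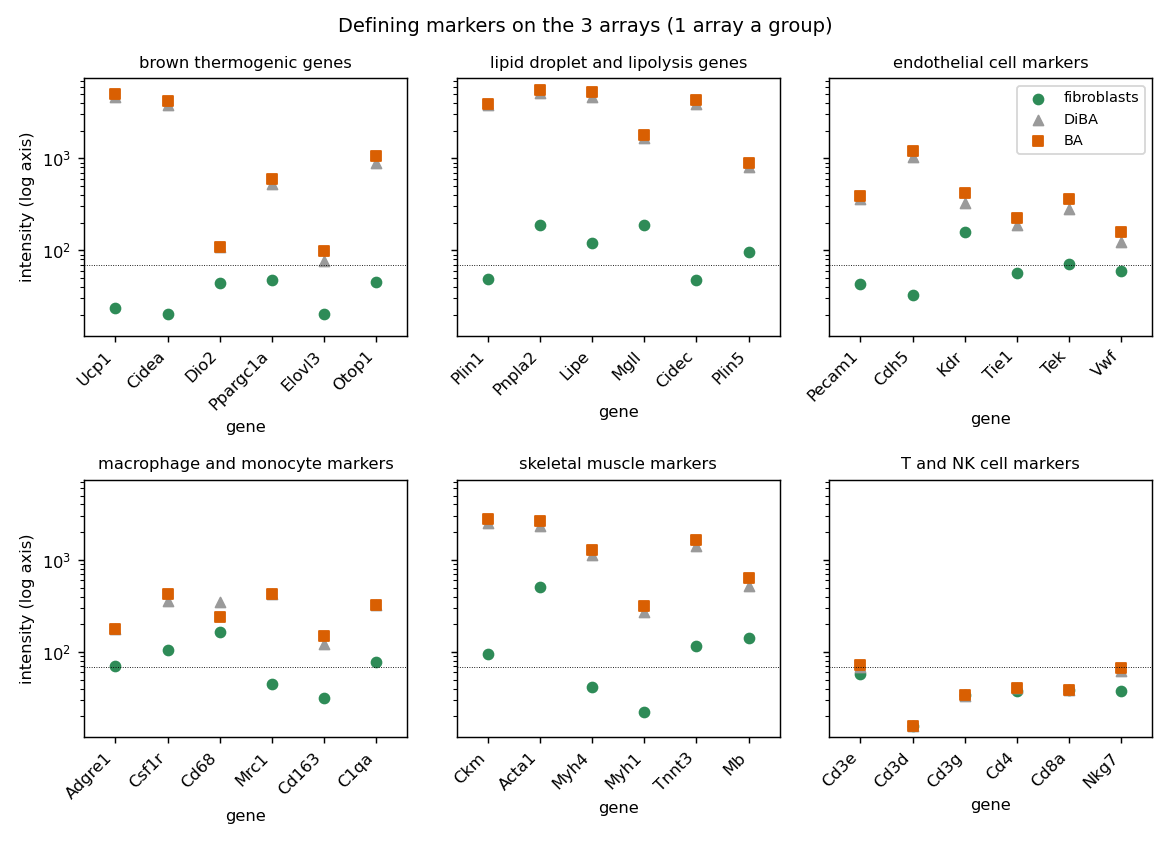
Intensity (log axis) of the defining markers of 6 lists on each of the 3 arrays, fibroblasts as green circles, DiBA as grey triangles and BA as orange squares, with the median of all probe sets, 69.2, as a dotted line. Brown thermogenic, droplet, endothelial, macrophage and muscle markers lie higher in BA than in fibroblasts, and T and NK cell markers lie near or under the dotted line on all arrays. DiBA lies beside BA for most markers shown.

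The remaining tissue lists differed in how many genes reached the level. These were 2 of 6 erythrocyte, 4 of 5 platelet, 4 of 16 Schwann cell and neuron, and 9 of 15 mesothelial and epithelial markers. Of the erythrocyte markers measured, 1 (16.7%) was at least 2-fold higher, against 9.51% of all genes measured. This was Alas2, the haem synthesis enzyme of red cells, at 25.9 in fibroblasts and 340.2 in BA. The globin genes are not analysed here. Of 5 platelet markers, 2 (40%) lay at least 2-fold higher, Pf4 5.56-fold and Ppbp 2.47-fold. Itga2b (91.1 and 93.9) and Treml1 (84.7 on both arrays) reached the level but did not differ 2-fold, and Gp9 lay at 55.2 on both arrays. Of 16 Schwann cell and neuron markers, S100b alone was at least 2-fold higher, 4.85-fold at 259.7, and it is also made by adipocytes. Sox10, which defines Schwann cells, stood at 65.1 and 62.9, and Mbp, a myelin protein, at 89.0 and 178. Th, the enzyme of sympathetic nerves, lay at 46.4 on both arrays. Of 15 mesothelial and epithelial markers, 0 were higher and 5 lower, and with floored intensities 1 was lower. That gene was Krt19, 4.26-fold lower at 37.7.

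Stromal progenitors of adipose tissue resemble fibroblasts, and their 21 markers measured fell on both sides: 6 lay at least 2-fold higher, 6 lay lower, and the median was -0.18. Pi16 and Dpp4, of the progenitors that lie in the connective sheath, stood at 60.3 in fibroblasts and 240.0 in BA and at 59.1 and 154. Cd34, which the endothelial list also holds, was 2.51-fold higher at 1013, and Fmo2 11.6-fold at 349.9. The largest fold of the list, 27.6, was that of Pparg, which is also counted with the adipogenic regulators. Pdgfra, the receptor that marks the lineage, stood at 702 and 455, under the threshold. Dlk1, the preadipocyte factor that is lost as fat cells form, stood at 2878 in fibroblasts and 179 in BA, 16.0-fold lower. Thy1 was 7.29-fold and Anxa3 12.4-fold lower.

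Of the 214 fibroblast list genes, 151 (70.6%) lay at least 2-fold lower in BA, against 9.59% of all genes measured. The inflammatory list, given further below, differed, with 7 of 30 genes lower. Of 46 genes of fibrillar collagens and matrix, 37 lay at least 2-fold lower, 2 lay higher, and the median was -2.67, and the counts were the same with floored intensities. The list holds collagen chains, the enzymes that modify and cross-link them, and other matrix proteins. Col1a1 stood at 4780.4 in fibroblasts and 637 in BA, 7.49-fold lower. Col1a2 stood at 3373 and 681, 4.95-fold lower, and Col3a1 at 1052 and 492, 2.14-fold lower. Lox, the enzyme that cross-links collagen, stood at 6467 and 179, 35.9-fold lower. Its relatives Loxl1 and Loxl3 were 5.80-fold and 7.28-fold lower. Modifying enzymes differed widely among themselves: the prolyl hydroxylase P4ha3 was 40.2-fold lower and P4ha2 2.58-fold, and Plod2, a lysyl hydroxylase, was 24.3-fold lower. Of matrix proteins tied to tension, Ccn2 was 40.3-fold, Tnc 29.4-fold and Col12a1 44.2-fold lower. Fn1, fibronectin, was 9.31-fold lower at 849.8. The small proteoglycans were split. Bgn, biglycan, and Fmod, fibromodulin, were 6.04-fold and 10.7-fold lower. Dcn, decorin, stood at 2655 in fibroblasts and 5934 in BA, 2.23-fold higher, and Lum, lumican, at 341 and 817, 2.39-fold higher.

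Contractile genes gave 24 of 29 at least 2-fold lower and 0 higher, and a median of -2.48. Actg2, a smooth muscle actin, stood at 1496 in fibroblasts and 54.2 in BA, 27.1-fold lower. Tagln, a target of serum response factor, stood at 2841 and 137, 20.6-fold lower. Acta2, the actin that marks myofibroblasts, was 14.4-fold lower, and Myl9, the myosin light chain, 11.3-fold. The non-muscle crosslinker Actn1 was 25.7-fold lower at 153. Since skeletal actin Acta1 was 5.20-fold higher at 2665, actin genes differed in opposite directions.

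Of 22 matrix proteases and inhibitors, 13 lay at least 2-fold lower, 1 lay higher, and the median was -1.40. The inhibitors of metalloproteases did not share a direction. Timp1 stood at 1912 in fibroblasts, 272 in DiBA and 51.2 in BA, 36.6-fold lower in BA. Timp2 stood at 2108, 965 and 699, 3.01-fold lower. Timp4, known from heart and fat, stood at 22.6, 845 and 1048, 44.5-fold higher. Mmp14, the membrane-bound metalloprotease, was 6.28-fold lower, while Mmp2, which it activates, stood at 2281 and 1188, under the threshold.

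Cell cycle genes had the largest share of lower genes among the fibroblast lists, with 51 of 56 at least 2-fold lower and 0 higher, and a median of -2.48. With floored intensities 48 were lower and the median was -1.85. Ccna2, the cyclin of S phase, stood at 1258 in fibroblasts, 175 in DiBA and 39.3 in BA, 31.3-fold lower in BA. Bub1, a kinase of the spindle checkpoint, stood at 690.0, 88.3 and 22.4, 29.6-fold lower. Mki67, the proliferation antigen, stood at 963, 281 and 34.0, 27.6-fold lower. All were under the median in BA, with DiBA between both arrays. Ect2, which starts cytokinesis, was 26.1-fold lower, Prc1, which bundles the spindle midzone, 24.9-fold, and Cdk1, the mitotic kinase, 8.73-fold at 118.

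Genes of mitosis are known to share a CCAAT box bound by NF-Y in their promoters. The RefSeq promoter table (GRCm38.p6) was searched on both strands over the 250 bases before each start. Of 56 genes measured, 46 had an entry, with 50 windows. CCAAT stood in 36 of these (72%), against 33.8% of all 32851 windows, and 2 or more copies stood in 20 (40%), against 10.1%. The cell cycle homology region TTTGAA stood in 13 (26%), against 16.0%. A match of letters is a description and not a bound site. The windows of 4 genes among the lowest of the list are printed 5′ to 3′ with CCAAT, or its complement ATTGG, in capitals, to show its place near the start.
Bub1, chr2:127831860-127832109, minus strand: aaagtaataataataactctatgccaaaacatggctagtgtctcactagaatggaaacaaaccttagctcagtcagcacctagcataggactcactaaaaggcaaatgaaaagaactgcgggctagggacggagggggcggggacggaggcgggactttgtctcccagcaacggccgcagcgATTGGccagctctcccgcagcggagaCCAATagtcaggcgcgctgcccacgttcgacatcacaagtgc
Mki67, chr7:135716380-135716629, minus strand: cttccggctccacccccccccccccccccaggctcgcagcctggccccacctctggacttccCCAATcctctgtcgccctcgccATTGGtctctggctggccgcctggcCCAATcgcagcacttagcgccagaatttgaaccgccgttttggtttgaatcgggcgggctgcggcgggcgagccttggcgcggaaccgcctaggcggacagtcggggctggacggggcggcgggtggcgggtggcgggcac
Ect2, chr3:27153879-27154128, minus strand: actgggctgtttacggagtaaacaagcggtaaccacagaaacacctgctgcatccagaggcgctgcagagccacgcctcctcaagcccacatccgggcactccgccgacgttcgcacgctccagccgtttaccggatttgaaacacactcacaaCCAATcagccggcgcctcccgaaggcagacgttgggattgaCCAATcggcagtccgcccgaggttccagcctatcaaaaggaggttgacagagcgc
Prc1, chr7:80294201-80294450, plus strand: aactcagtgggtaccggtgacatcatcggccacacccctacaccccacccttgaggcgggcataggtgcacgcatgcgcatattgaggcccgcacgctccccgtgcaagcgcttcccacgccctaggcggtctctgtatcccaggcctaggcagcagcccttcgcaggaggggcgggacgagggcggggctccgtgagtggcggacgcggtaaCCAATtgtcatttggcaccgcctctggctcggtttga

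Bub1 held 2 copies, 42 and 68 bases before the start, and Ect2 held 2, at 55 and 96 bases. Prc1 held 1, at 37 bases, and the 3 copies of Mki67 lay farther out, between 141 and 188 bases. In the adipocyte lists the share of windows with CCAAT ran from 23.8% for adipokines and 35% for brown thermogenic genes to 53.8% for the citric acid cycle and 59.1% for branched-chain amino acid breakdown.

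Of 30 inflammatory cytokine and chemokine genes, 16 reached the level, 7 (23.3%) lay at least 2-fold lower and 4 (13.3%) higher. The other 19 did not differ 2-fold, and the median was -0.04. Over all genes measured 9.59% were lower and 9.51% higher, and over those past the level filter 16.4% and 16.3%. The share that was higher lay between these. The lower ones include known products of activated fibroblasts. Ccl2 and Ccl7, which draw monocytes, stood at 1028 in fibroblasts and 74.5 in BA and at 1332 and 80.6. Ptgs2, the inducible prostaglandin synthase, stood at 1503 and 41.2, 35.7-fold lower. Has2, a hyaluronan synthase, was 15.0-fold lower, and Csf1, the macrophage growth factor whose receptor was higher, 6.53-fold lower at 174. The 4 higher genes are also chemokines. Ccl11, eotaxin, stood at 60.7 and 914, 14.8-fold higher. Cxcl9, a chemokine induced by interferon gamma, stood at 39.3 and 453, 11.3-fold higher. Ccl9 was 2.11-fold higher, and Ccl8 3.41-fold higher at 135, though under 2-fold with floored intensities. Il6 lay under 69.2 on both arrays.

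Growth factors gave 19 of 31 at least 2-fold lower and 0 higher, and a median of -2.14. Igf2, an imprinted fetal growth factor, stood at 5998 in fibroblasts, 809 in DiBA and 106 in BA, 56.0-fold lower in BA. Inhba, the activin A subunit, stood at 1909, 76.0 and 52.4, 35.8-fold lower. Bmp4 was 18.1-fold lower at 161. The TGF-beta ligands differed among themselves: Tgfb3 was 16.8-fold and Tgfb2 12.7-fold lower, while Tgfb1 stood at 376 and 247, under the threshold. Hbegf, a ligand of the epidermal growth factor receptor, was 10.1-fold lower, and Igfbp3, which binds insulin-like growth factors, 11.6-fold lower.

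Sex-linked genes set the samples apart. Xist, the RNA that coats the inactive X chromosome of females, stood at 1748 in fibroblasts, 1155 in DiBA and 22.0 in BA. The Y-linked genes Eif2s3y (187, 603 and 678), Uty (112, 319 and 373) and Kdm5d (94.3, 179 and 190.2) ran the other way and were 3.61-fold, 3.30-fold and 2.01-fold higher in BA than in fibroblasts. Both kinds of gene thus lay above 69.2 in fibroblasts and DiBA, while in BA Xist lay under it. The labels give no sex, and donor sex cannot be told apart from cell type in the differences between BA and fibroblasts. Of 16 housekeeping genes, 1 was at least 2-fold higher (Sdha, 6.02-fold, which also belongs to the citric acid cycle) and 1 lower (Ywhaz, 2.28-fold). Actb stood at 12789 and 8548, Hprt at 601 and 631, Ppia at 3878 and 3648, Tbp at 351 and 289, and B2m at 3515 and 5078.

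Another imprinted locus besides Igf2 held several lower genes. The Dlk1-Dio3 region of chromosome 12 holds Dlk1 on the paternal copy and, on the maternal copy, long RNAs from which many miRNAs are cut. Its genes were chosen after their values had been seen. The mature sequences of the 4 region miRNA genes described next, and of the 1 called adipocyte miRNA gene, are given from RefSeq (GRCm38.p6), 5′ to 3′, with the seed (bases 2 to 8) in capitals.
mmu-miR-380-5p: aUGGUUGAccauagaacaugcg
mmu-miR-380-3p: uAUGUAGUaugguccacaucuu
mmu-miR-382-5p: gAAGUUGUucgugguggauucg
mmu-miR-382-3p: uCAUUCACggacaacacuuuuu
mmu-miR-134-5p: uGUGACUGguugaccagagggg
mmu-miR-134-3p: cUGUGGGCcaccuagucacc
mmu-miR-377-5p: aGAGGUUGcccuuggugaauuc
mmu-miR-377-3p: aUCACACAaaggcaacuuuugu
mmu-miR-365-1-5p: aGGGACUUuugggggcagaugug
mmu-miR-365-3p: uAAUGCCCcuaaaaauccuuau

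The array reads the precursor or host transcript at each miRNA gene and not the mature RNA. Of 296 miRNA genes measured, 74 reached the level, 4 (1.35%) were at least 2-fold higher and 19 (6.42%) lower. In the Dlk1-Dio3 region, 40 of 61 miRNA genes known to RefSeq were measured and 17 reached the level. Of the 40, 11 lay at least 2-fold lower and 0 lay higher, 35 lay below 0, 5 were tied, and the median was -0.98. With floored intensities 6 were lower. Mir377 stood at 229 in fibroblasts and 22.0 in BA, a difference of -3.32. Mir382 stood at 179.8 and 17.0 (-3.33), and Mir380 at 90.1 and 7.90 (-3.35). These 3 lay far under the median in BA, where background sets much of a value. Mir134, a brighter member, stood at 305 and 61.1, 4.92-fold lower. The seeds printed above differ from each other. So did all 25 seeds of the called miRNA genes in this region and in the chosen miRNA lists. Of these 15 called genes, 13 had a mature sequence, and other called miRNA genes were not looked up.

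Some host and neighbouring genes of the region were lower too. Meg3, the long RNA at its start, stood at 999 in fibroblasts, 195 in DiBA and 113 in BA, 8.74-fold lower in BA. Rian, which hosts small nucleolar RNAs and miRNAs, stood at 249, 33.4 and 25.7, 9.38-fold lower. Dlk1 itself was 16.0-fold lower, so genes of both parental copies shared the direction. Dio3, the deiodinase that inactivates thyroid hormone at the far end of the region, lay at 42.0 on all arrays, and Rtl1 stood at 44.9 and 31.5, under 69.2. Mir666 and Mir673 were past the level and tied. Outside the region, the called miRNA genes included Mir143 and Mir145a, known from smooth muscle and mesenchyme, at 179 and 39.4 and at 273 and 50.4, and Mir199a-1, 3.36-fold lower. Of 12 miRNA genes linked to brown fat and adipocytes, 3 reached the level, 1 was at least 2-fold higher and 0 lower, and the median was 0. Of all miRNA genes measured, 1.35% were higher. The higher gene, Mir365-1, stood at 48.2 and 127, 2.60-fold higher and under 2-fold with floored intensities. Its relative Mir365-2 stood at 77.8 and 75.7. Of 6 skeletal muscle miRNA genes 0 reached the level, although messenger RNAs of muscle were bright in the same array.

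**Figure D5:**
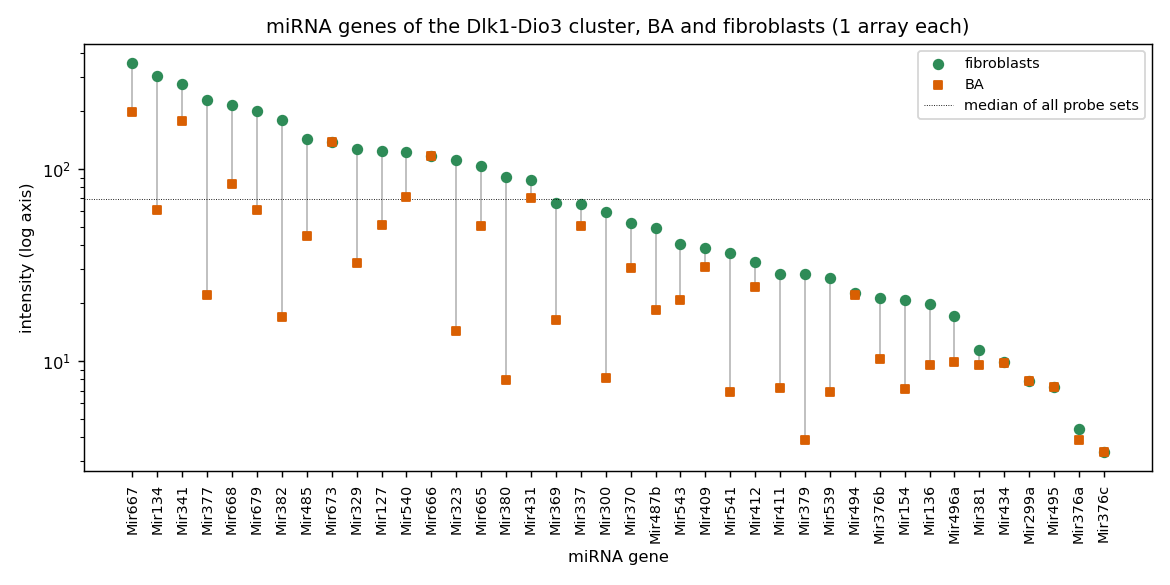
Intensity (log axis) of the 40 measured miRNA genes of the Dlk1-Dio3 region in fibroblasts (green circles) and BA (orange squares), 1 array each, ordered by fibroblast intensity, with the median of all probe sets as a dotted line. BA lies under fibroblasts in 35 of 40, and only 17 genes have a point on or above the dotted line.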

How the data were processed

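Total RNA of 3 mouse samples was hybridised to single-colour Affymetrix arrays. Per the labels' protocols, RNA was taken with ISOGEN II and biotinylated with a whole-transcript kit. The deposited values are linear intensities, 1 for every probe set on every array. Per the submitters' processing notes the authors used Affymetrix Expression Console. No version, summarization or normalization method is given in the sources at hand, and scanner files were not used.

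The platform's probe table listed 23410 of 28943 probe sets, 21789 of them with 1 gene symbol. Values became log2(intensity + 1), and probe sets of a gene were averaged (999 of 19938 genes had several, and in 0 of the 187 called among them did the probe sets differ in sign). The number of arrays limits the precision. Of 856 entries in 35 gene lists, 66 were not measured and 5 matched through an older symbol. The lists and members were chosen with earlier results of these data known. Named genes are each list's defining genes, its up to 4 highest and 4 lowest called genes, the 25 highest and 25 lowest genes (without predicted genes, Riken clones, olfactory receptors, small RNAs and immunoglobulin genes) and the isoform pairs. All miRNA genes, Meg3, Rian, Rtl1, Dio3 and these list members were chosen after their values were seen: Zic1, Eva1a, Lhx8, Fgf21, Bmp8b, Plin3, Dgat1, Gpat3, Slc25a20, Crat, Atp5a1, Loxl1, Loxl3, P4ha2, Bgn, Fmod, Tpsb2, Fcer1a, Ms4a2, Mcam, Higd1b, Acot11, Angptl8, Atp5l, Csf1, Hadhb, Hbegf, Igfbp3, Irf4, Irs3, Mlxipl, Nampt, Npr1, Pank1, Pcca, Plin4, Plod2, Pnpla3, Prc1, Prkar2b, Ryr1, Tnnc2 and Tnni2. Also chosen in that way were Mertk, Itgam, Cx3cr1, Trem2, Aif1, Fcgr1, Timd4 and Treml1. The steps were tested on simulated data. Python 3.11.15, numpy 2.4.6, pandas 2.3.3 and matplotlib 3.10.9 were used.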

Additional observations from a re-analysis of the deposited data

How the results depend on the processing

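The counts of all genes higher and lower, of adipocyte and tissue markers higher and of fibroblast genes lower were recomputed under 10 alternatives: median centring, quantile normalization, no level filter, a filter at the 75th percentile, floored intensities, a pseudocount of 32, the brightest probe set, single probe sets, a 4-fold threshold, and tied genes left out. Each stayed within 1.5 times except at 4-fold, where 862 genes were higher, 674 lower and 54 tissue markers higher. Of 865 gene differences recomputed, 0 of those called changed sign. Most of these settings cannot turn the sign of a called gene, so this count says little. With a pseudocount of 32, 173 moved by more than 1.5-fold or changed their call, and with floored intensities 162. The share of calls that were higher ran from 48.5% to 51.8% at 2-fold and was 56.1% at 4-fold. The median of all genes moved by -0.03 under quantile normalization and stayed nearer to 0 under the other scalings. No paired analysis was possible because each group holds 1 array. For the same reason no array could be left out.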
